A study of Mus musculus with 6 samples.

Results

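Mature oligodendrocytes, the cells that wrap axons of the optic nerve in myelin, express many genes besides those of the myelin proteins themselves. A set of 39 such genes was described here by name, and all 39 were found among the 35850 genes of the table. Each gene's value was the sum over its listed transcripts, 209 in all, in TPM (a relative unit corrected for transcript length, with the same total in each library). The libraries were poly(A) RNA from optic nerves of 6-week-old mice of 1 genotype, GFAP-Cre; Nf1-Flox/R681X, in which 1 Nf1 allele carries the R681X mutation and the other is removed wherever the GFAP promoter drives Cre, mainly in astroglial cells and their progenitors. The control group (3 libraries) was fed PicoLab 5053. The obesogenic group (3 libraries) had an AIN-76A formula with sucrose and 58% of energy from fat, and the series title describes a maternal exposure. All groups used here carried the same Nf1 alleles, so diet is the only labelled difference and no comparison with intact Nf1 was made. The labels do not say whether libraries came from separate animals, litters or pools, so p-values reflect only how far these samples spread, and that spread may be technical.

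An oligodendrocyte that has begun to myelinate switches on the transcription factor MYRF, which together with SOX10 drives the late programme of the lineage. That programme includes enzymes that feed lipid and energy metabolism, proteins that remodel actin, microtubules and septins while the sheath is compacted, receptors, and adhesion and matrix proteins at the contact with the axon and its nodes. Many of these genes are also expressed by other cells of the nerve or its sheath, so in a bulk sample they report on more than 1 cell type.

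All 39 genes had at least 1 TPM in at least 3 libraries and were tested. Control means ran from 18.98 TPM (Jam3) to 2319 TPM (Plekhb1), with 32 genes at 100 TPM or more and 8 at 500 TPM or more. Summed over the 39 genes, control libraries 1, 2 and 3 held 15770, 14880 and 13910 TPM and obesogenic libraries 1, 2 and 3 held 13280, 10120 and 8318 TPM. Every obesogenic sum was thus below every control sum, with obesogenic library 1 nearest to the controls. Genes of the tissue's 2 main glial types were abundant, with Mbp, a major myelin protein, at 39390 ± 1540 TPM and Gfap, an astrocyte filament protein, at 3701 ± 1361 TPM in control libraries (SD, n = 3). Obesogenic library 2 stood apart, with immunoglobulin genes making up 20.3% of its listed TPM and at most 0.0427% of any other library's. Values of this library are therefore given separately wherever a result rests on it.

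The first comparison asked whether the diet groups differed in these genes. The obesogenic mean was lower in 37 of the 39 genes, while it was lower in 42.3% of all 14364 genes tested. The direction held for 37 genes under every scaling of the libraries tried except one, rescaling without immunoglobulin genes, where Sec11c was slightly higher and 36 were lower. The median log2 change of the 39 genes was -0.53, against 0.08 over all genes. With limma's array weights, which let libraries count unequally, 30 genes were lower and the median was -0.14, against 0.18 over all genes. No single gene passed the threshold of 0.05 after adjustment over all genes (limma, adjusted p from 0.248 to 0.939), and 1 gene of the whole table did (0.00696%). In 11 genes every obesogenic library was below every control library (7.45% of all genes), and in 0 genes every obesogenic library was above (8.88%). At an unadjusted p under 0.05 there were 11 genes, all lower (5% of all genes were lower at that level). These changes are of bulk RNA in a relative unit. Fewer oligodendrocytes, less of a transcript per oligodendrocyte and a larger share of RNA from other cells cannot be told apart in it.

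The obesogenic libraries were not alike. The median difference from the control mean was -0.08 on the log2 scale in library 1, -0.69 in library 2 and -0.79 in library 3, while over all genes it was 0.19, -0.16 and 0.14. TPM has a fixed total, so the immunoglobulin share of library 2 (20.3%) lowers the values of its other genes. In the fit rescaled without immunoglobulin genes, 36 of the 39 genes were still lower, with a median log2 change of 0.17 over all genes. The median of library 2 alone was not computed on that scale. Library 1 had 13 of the 39 genes below the control range, 21 within it and 5 above it, with 18% of all genes below. Library 2 had 34 below, 1 within and 4 above, and library 3 had 37 below, 2 within and 0 above; over all genes 44.2% and 27.7% were below. Of the obesogenic libraries, library 1 was the highest for 33 of the 39 genes, and the lowest was library 3 for 20 and library 2 for 17. Without obesogenic library 1, the number of genes with no overlap between diets was 33 in place of 11 (15.7% of all genes were then below without overlap), and without control library 2 it was 18 (10.5% of all genes). Spread followed the same pattern: the median SD was 11.9% of the mean in control and 33.3% in obesogenic libraries, against 19.2% and 32.9% over all genes. The spread was larger in the obesogenic group for 37 of the 39 genes and for 71.9% of all genes.

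**Figure D1:**
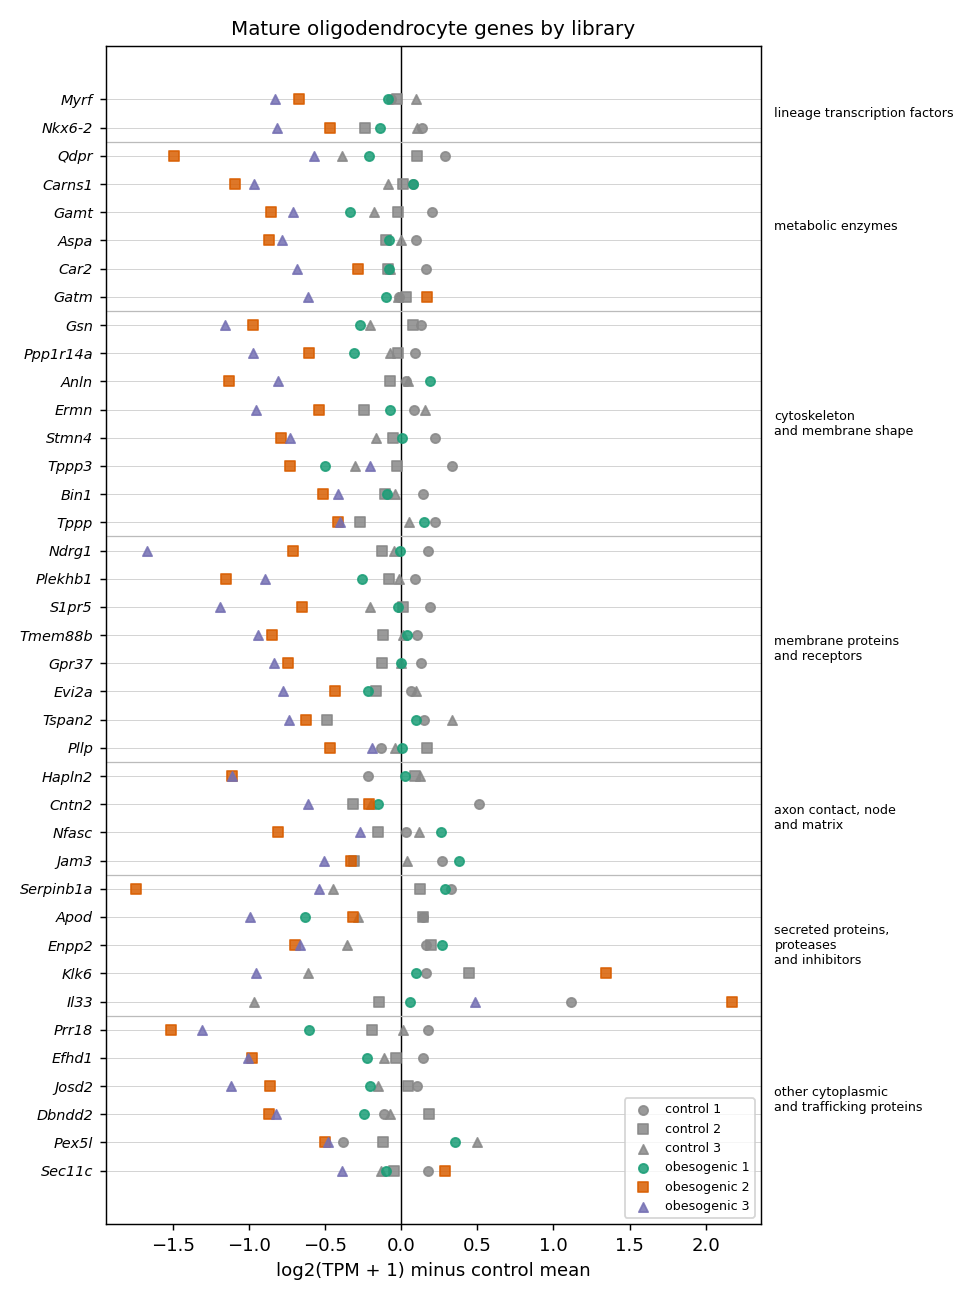
Each of the 39 mature oligodendrocyte genes is plotted by role, with log2(TPM + 1) minus the control mean on the horizontal axis and 1 point per library (grey, control; green, orange and purple, obesogenic libraries 1, 2 and 3). Most orange and purple points lie left of the grey points, green points lie near them, and Klk6 and Il33 are highest in obesogenic library 2.

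The 2 lineage transcription factors were both lower on average and passed no threshold. Myrf, the factor that starts and maintains the myelinating programme, measured 24.21, 24.87 and 27.18 TPM in control libraries 1, 2 and 3 and 23.9, 15.57 and 13.89 TPM in obesogenic libraries 1, 2 and 3. All obesogenic values were below the controls, but the gap between obesogenic library 1 and the lowest control was small. Its log2 change was -0.53 (SE 0.25, adjusted p = 0.503). Nkx6-2, a homeodomain factor of maturing oligodendrocytes, measured 249.1, 191.6 and 242.8 TPM against 205.8, 163.7 and 128.3 TPM, a log2 change of -0.47 (SE 0.23, adjusted p = 0.502). The groups overlapped, since obesogenic library 1 was above control library 2.

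All 6 metabolic enzymes had a lower obesogenic mean, with a median log2 change of -0.60. Gamt, which catalyses the last step of creatine synthesis, measured 151.7, 130 and 116.5 TPM in the controls and 104.3, 72.67 and 80.41 TPM with the obesogenic diet. Every obesogenic value was below every control value, and the log2 change was -0.63 (SE 0.20, adjusted p = 0.363). Gatm, which catalyses the preceding step, measured 602.4, 619.4 and 599 TPM against 567.6, 683.5 and 397.5 TPM. Its control libraries were nearly equal and its obesogenic libraries lay on both sides of them, with library 2 above and the others below (log2 change -0.18, SE 0.24, adjusted p = 0.836). The enzymes of the 2 creatine steps therefore differed in whether the diets overlapped; the difference between them was not tested.

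Aspa, the aspartoacylase that releases acetate from N-acetylaspartate, measured 230.8, 200.8 and 215.6 TPM in the controls and 204.1, 117.7 and 124.6 TPM with the obesogenic diet. Obesogenic library 1 lay within the control range and the other obesogenic libraries below it (log2 change -0.58, SE 0.24, adjusted p = 0.446). Car2, the carbonic anhydrase long used to mark oligodendrocytes, measured 1110, 933.2 and 942.7 TPM against 940, 813.3 and 616.7 TPM. Here too obesogenic library 1 was within the control range, and the log2 change was -0.35 (SE 0.23, adjusted p = 0.638). Carns1, the carnosine synthase, and Qdpr, which recycles tetrahydrobiopterin, had log2 changes of -0.66 and -0.76 with overlapping diets. Qdpr was lowest in obesogenic library 2, at 88.65 TPM against a control range of 191.2 to 306.4 TPM.

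Because Gamt had the smallest unadjusted p of the enzymes, the 250 bases before its start site are shown, as given by RefSeq for GRCm38.p6 at chr10:80261013-80261262, minus strand. Capitals mark the letters CTGGNAC, the core bound by MYRF, here found on the opposite strand. 

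Gamt promoter: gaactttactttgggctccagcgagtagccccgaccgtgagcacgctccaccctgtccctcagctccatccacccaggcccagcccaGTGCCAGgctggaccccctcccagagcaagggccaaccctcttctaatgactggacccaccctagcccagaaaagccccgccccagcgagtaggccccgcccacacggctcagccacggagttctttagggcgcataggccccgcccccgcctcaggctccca

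RefSeq windows, from 250 bases before to 50 bases after a start, were matched for 25 of the 39 genes (33 windows). CTGGNAC was present on either strand in 11 of these 33 windows (33.3%) and in 19.3% of all 32851 windows. A match describes these letters only and is not evidence of binding.

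The 8 genes of the cytoskeleton and membrane shape were all lower on average, with a median log2 change of -0.51. Gsn, the actin-severing protein gelsolin, measured 1911, 1842 and 1518 TPM in the controls and 1450, 891.8 and 782.1 TPM with the obesogenic diet. The diets did not overlap, although obesogenic library 1 was close to control library 3 (log2 change -0.80, SE 0.29, adjusted p = 0.414). Ppp1r14a, an inhibitor of myosin phosphatase, measured 206.4, 190.9 and 184.4 TPM against 156.1, 127.1 and 98.02 TPM. Its obesogenic libraries were also all below the controls, with a log2 change of -0.63 (SE 0.21, adjusted p = 0.371).

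In the other 6 cytoskeletal genes the diets overlapped. Anln, the septin scaffold anillin, and Ermn, the actin-binding protein ermin, had log2 changes of -0.58 and -0.52. Stmn4, a stathmin that binds tubulin, had a log2 change of -0.50, and Bin1, which bends membranes, one of -0.34. The tubulin-polymerising protein Tppp was at 211.2 ± 35.55 TPM in the controls and 182.3 ± 43.41 TPM with the obesogenic diet, a log2 change of -0.22. Its relative Tppp3 was at 342.8 ± 77.24 and 244.3 ± 45.38 TPM, a log2 change of -0.48 (SD, n = 3). Obesogenic library 1 was above all controls for Anln, at 128 TPM against 106.2 to 115.5 TPM.

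Membrane proteins and receptors numbered 8, all with a lower obesogenic mean and a median log2 change of -0.55. Plekhb1, a pleckstrin-homology protein and the most abundant of the 39 genes, measured 2465, 2197 and 2296 TPM in the controls and 1939, 1042 and 1249 TPM with the obesogenic diet. The diets did not overlap, and libraries 2 and 3 were far below library 1 within the obesogenic group. The log2 change was -0.77 (SE 0.29, adjusted p = 0.420). Evi2a, a membrane protein, was at 215 ± 20.59 TPM in the controls and 155.7 ± 29.68 TPM with the obesogenic diet without overlap (log2 change -0.48, SE 0.20, adjusted p = 0.446). Evi2a lies within an intron of Nf1 on the opposite strand, and how strand was handled is not given here, so reads of the 2 genes may not be separated.

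The other 6 membrane genes overlapped between diets. Ndrg1, a protein of the cytoplasm and membranes that is mutated in a demyelinating neuropathy, had a log2 change of -0.79. It was lowest in obesogenic library 3, at 14.11 TPM against a control range of 42.89 to 53.15 TPM. Its longest coding form in GENCODE M21, Ndrg1-201 with 1182 coding bases, was not analysed here, and no form analysed had more than 523. The sphingosine-1-phosphate receptor S1pr5 and the orphan receptor Gpr37 had log2 changes of -0.62 and -0.53. Those of the membrane proteins Tmem88b, Tspan2 (a tetraspanin) and Pllp (plasmolipin) were -0.58, -0.42 and -0.22.

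The 4 genes of axon contact, node and matrix were all lower on average, and the diets overlapped in each. Hapln2, a hyaluronan link protein of the nodal matrix, measured 850.3, 1050 and 1077 TPM in the controls and 1003, 457.5 and 457.3 TPM with the obesogenic diet. Obesogenic library 1 lay inside the control range, while the other obesogenic libraries were below every control (log2 change -0.73, SE 0.34, adjusted p = 0.490). Most of this value came from retained-intron transcripts. The coding form, Hapln2-201, measured 230.6, 248.5 and 262.8 TPM in the controls and 219.6, 105.5 and 117.6 TPM with the obesogenic diet, without overlap (log2 change -0.82, SE 0.30, adjusted p = 0.525). Cntn2, a juxtaparanodal adhesion molecule, had a log2 change of -0.33, and Nfasc, the neurofascin of the paranode and node, one of -0.27. The junctional adhesion molecule Jam3 had a log2 change of -0.15. Its listed value was the lowest of the 39 genes and rests mainly on a retained-intron transcript. Its only protein-coding form in GENCODE M21, Jam3-201, was not analysed here, so the value and its rank leave that form out.

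Among 5 secreted proteins, proteases and inhibitors, 3 were lower and 2 higher on average. Apod, a lipid-binding apolipoprotein, measured 956.6, 956 and 711.4 TPM in the controls and 560.2, 696 and 435.8 TPM with the obesogenic diet. The diets did not overlap, with obesogenic library 2 just below control library 3, and the log2 change was -0.65 (SE 0.25, adjusted p = 0.424). Enpp2, the enzyme autotaxin, and the protease inhibitor Serpinb1a had log2 changes of -0.37 and -0.67. Serpinb1a, which has close copies in the mouse genome that may share reads, was lowest in obesogenic library 2, at 38.91 TPM against 97 to 166.6 TPM in control libraries.

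The 2 genes with a higher obesogenic mean were both highest in obesogenic library 2. Klk6, a secreted protease made by oligodendrocytes, measured 567.6, 689.9 and 330.2 TPM in the controls and 540.9, 1288 and 260.3 TPM with the obesogenic diet. Library 2 was above every control, library 1 was within their range and library 3 was below it. The log2 change was 0.16 (SE 0.57, adjusted p = 0.939), and without obesogenic library 2 it was -0.43. Il33, a nuclear cytokine released on cell damage and found in mature oligodendrocytes and astrocytes, measured 82.36, 33.74 and 18.69 TPM against 39.11, 172.2 and 52.76 TPM. Again only library 2 was above the control range, and the log2 change was 0.90 (SE 0.67, adjusted p = 0.683), or 0.27 without that library. Obesogenic library 2 also held the immunoglobulin transcripts, with the 10-gene immunoglobulin and plasma cell list summing to 80790 TPM against 53.6 to 166.5 TPM elsewhere, and the highest microglial list, at 2434 TPM against 578.7 to 880.6 TPM; their part in these values was not tested.

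**Figure D2:**
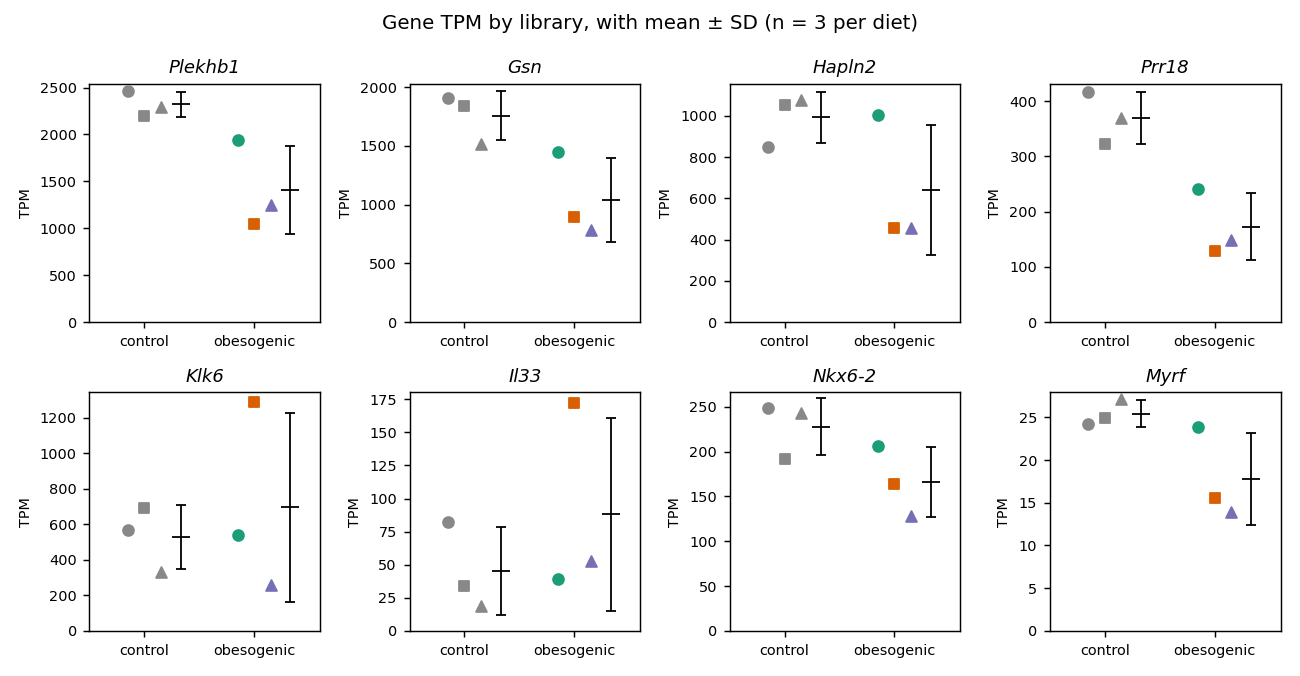
TPM on a linear axis from 0 is shown for 8 of the genes, with 1 point per library (grey, control; green circle, orange square and purple triangle, obesogenic libraries 1, 2 and 3) and the mean ± SD as a black bar (n = 3 per diet). Plekhb1, Gsn, Prr18 and Myrf do not overlap between diets, Hapln2 and Nkx6-2 overlap through obesogenic library 1, and Klk6 and Il33 are highest in obesogenic library 2.

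The last 6 genes encode other cytoplasmic and trafficking proteins, all lower on average, with a median log2 change of -0.69. In 4 of them every obesogenic library was below every control library, as in 7.45% of all genes. Prr18, a proline-rich protein, measured 415.9, 321.6 and 370.2 TPM in the controls and 241.2, 128.3 and 147.9 TPM with the obesogenic diet. Every obesogenic library was well below the lowest control, and the log2 change of -1.14 (SE 0.27, unadjusted p = 0.00325, adjusted p = 0.248) was the furthest from 0 of the 39 genes. Prr18 and Apod were the genes that passed when libraries were given limma's array weights (adjusted p = 0.0435 and 0.029), a fit in which 2064 of all genes passed.

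The 250 bases before the start of Prr18, the gene with the largest difference, come from RefSeq for GRCm38.p6, chr17:8340156-8340405, plus strand. Capitals mark the letters AACAAT, a core recognised by SOX proteins.

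Prr18 promoter: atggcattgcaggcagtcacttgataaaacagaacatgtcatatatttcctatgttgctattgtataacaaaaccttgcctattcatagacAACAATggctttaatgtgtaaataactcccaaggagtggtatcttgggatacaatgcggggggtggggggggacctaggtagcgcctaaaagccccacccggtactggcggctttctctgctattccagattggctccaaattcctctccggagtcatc

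On either strand, AACAAT was found in 6 of the 33 windows of these genes (18.2%) and in 10.7% of all windows. A second SOX-type core, AACAAAG, was in 0 of 33 (5.85% of all windows), and the E-box CAGCTG, a core bound by OLIG factors, in 7 of 33 (21.2% against 16.3%). The windows of 1 gene can overlap, so they are not independent.

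Dbndd2, a dysbindin-domain protein that binds casein kinase, measured 732, 900.1 and 752.8 TPM in the controls and 668.9, 433.5 and 446.9 TPM with the obesogenic diet. Its diets did not overlap (log2 change -0.64, SE 0.24, adjusted p = 0.414). Josd2, a deubiquitinase, measured 499.5, 479.2 and 419 TPM against 403.4, 255 and 213.3 TPM. Obesogenic library 1 was just below the lowest control and the others far below (log2 change -0.73, SE 0.26, adjusted p = 0.410). Efhd1, a calcium-binding protein of mitochondria, measured 121, 106.6 and 101.1 TPM against 93.28, 54.87 and 53.98 TPM. The same arrangement held, with a log2 change of -0.74 (SE 0.25, adjusted p = 0.380). Pex5l, a relative of the peroxisomal import receptor, and Sec11c, a signal peptidase subunit, overlapped between diets with log2 changes of -0.21 and -0.07. Sec11c was above the control range in obesogenic library 2.

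The second comparison asked whether these genes differed between diets beyond the myelin protein genes of the same library. The 10 genes of compact myelin and myelin adhesion all had a lower obesogenic mean, with a median log2 change of -0.65. In 5 of them every obesogenic library was below every control library, as in 7.45% of all genes. Mbp was at 20730 ± 9206 TPM with the obesogenic diet, a log2 change of -1.01, and Cldn11, a claudin of the myelin sheath, was at 393.4 ± 74.38 against 181.8 ± 47.54 TPM (log2 change -1.12, adjusted p = 0.228). After the median level of this list was subtracted from each library, 38 of the 39 genes were higher in obesogenic libraries and Prr18 alone was lower (log2 change -0.29, SE 0.29). The median relative change was 0.32, above the 0.20 of the 10 myelin genes themselves, of which 6 were higher, and below the 0.93 of all genes on this scale. The median was 0.23, 0.29 and 0.47 in obesogenic libraries 1, 2 and 3. Libraries of the diets did not overlap in 18 genes, all above (60.7% of all genes), and in 0 below (0.362%). None of the 39 genes passed (limma, smallest adjusted p = 0.0803, for Il33), as 1 gene of the table did (0.00696%); 2 of the 39, Il33 and Sec11c, were at an unadjusted p under 0.05, as were 48.1% of all genes.

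This result depends on how the myelin level is taken. With the mean of the list in place of its median, an alternative chosen after seeing the data, 36 genes were higher and 3 lower, with a median of 0.26. Then 11 genes lay above without overlap and 1 below, against 60.4% and 0.536% of all genes.

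The genes of the rest of the lineage and of neighbouring cells were set beside the 39 genes. Of 14 genes of myelin lipid synthesis, 12 were lower, with a median log2 change of -0.32. Fa2h, which hydroxylates the fatty acids of myelin lipids, was at 629.1 ± 52.04 TPM in the controls and 334.9 ± 180.4 TPM with the obesogenic diet (adjusted p = 0.395). All 10 lineage transcription factors were lower, with a median of -0.36, including Sox10 at 216.8 ± 27.68 against 144.6 ± 51.12 TPM (adjusted p = 0.446). Earlier stages had medians nearer to 0: 7 of 10 genes of newly formed oligodendrocytes were lower (median -0.12) and 9 of 12 genes of precursors (median -0.15). Bcas1, the most abundant gene of the newly formed list, was at 988.7 ± 170.8 against 474 ± 130.5 TPM (log2 change -1.08, limma, adjusted p = 0.258). That list summed to 1138 to 1554 TPM in the controls and 656.4 to 1044 TPM with the obesogenic diet. The lists share genes: Olig1 and Olig2 are also among the precursors, as is Neu4 of the newly formed list. Of the genes of these lists 0 passed, and the differences between lists were not tested.

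Markers of other cells were summed up in the same way, and 0 of them passed by diet. All 13 tested meningeal fibroblast and arachnoid markers were lower, with a median log2 change of -1.36, and in each obesogenic library the median was between -1.63 and -1.34. Their sum was 2908 to 4035 TPM in the controls and 1188 to 1487 TPM with the obesogenic diet, with 1 marker of the 14, Pdgfrb, listed at 0 in all. All 12 endothelial and pericyte markers were lower, with a median of -1.06 and sums of 945.4 to 1416 against 516.2 to 541 TPM. All 15 neuronal markers were higher on average, with a median of 2.56 and sums of 130.7 to 236.1 against 365.8 to 2463 TPM, led by the neuropeptide genes Pomc and Npy. In obesogenic libraries 1, 2 and 3 the neuronal median was 2.51, 0.51 and 3.66. Of 10 astrocyte markers 6 were lower (median -0.20). Their part in the values of the oligodendrocyte genes was not tested.

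The 39 genes were also divided by the other cells known to express them. The 18 with no other source noted had a median log2 change of -0.58, with 17 lower. In 6 of them every obesogenic library was below every control library, as in 7.45% of all genes. The 9 that are also known from fibroblasts, meninges, vessels or choroid plexus, such as Gsn, Apod and Enpp2, were all lower, with a median of -0.48. The 8 also known from neurons, such as Stmn4 and Bin1, were all lower as well, with a median of -0.30, and in 0 of them did the diets separate. The 4 also known from astrocytes had a median of -0.69, with Il33 the only one higher. Lower means were thus measured in genes with and without a source noted here. The division may be incomplete, so genes with none noted may also be expressed by other cells. Differences between the divisions were not tested.

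**Figure D3:**
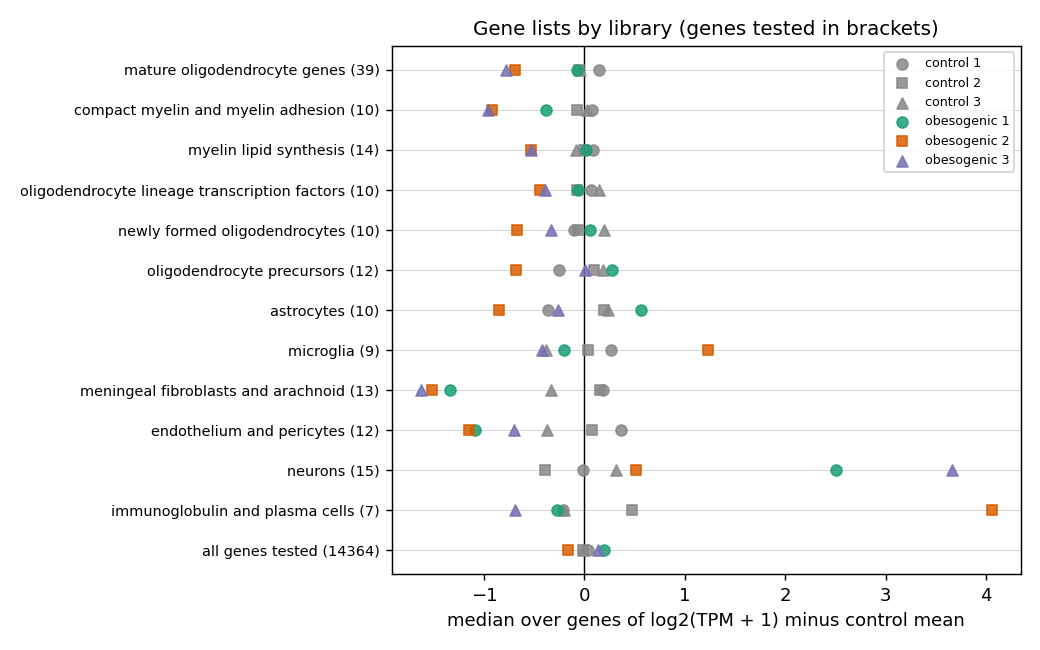
For each gene list the median over its tested genes of log2(TPM + 1) minus the control mean is plotted, 1 point per library (grey, control; green, orange and purple, obesogenic libraries 1, 2 and 3), with the number of genes in brackets. The mature oligodendrocyte genes and the myelin proteins are lowest in obesogenic libraries 2 and 3, the meningeal list is low in all obesogenic libraries, and the neuronal list is highest in obesogenic library 3.

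Since obesogenic library 2 stood apart, the genes were tested again without it. Over all genes 914 then passed, 735 higher and 179 lower (1.25% of genes passed as lower), and 0 of the 39 passed (smallest adjusted p = 0.0682, for Prr18). Of the 39 genes, 38 were lower, Il33 being the exception, and the median log2 change was -0.43. When the median gene was set equal between libraries, the median change of all genes moved from 0.08 to -0.07. The median of the 39 genes was then -0.68, and 25 lay below without overlap between diets, as did 14.6% of all genes.

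The third comparison looked at single transcripts. Of the 209 transcripts, 162 were tested, 135 were lower and 27 higher, and the median log2 change was -0.51 (0.07 over all 35408 transcripts tested). None passed (limma, smallest adjusted p = 0.177), against 2 of all transcripts (0.00565%). In 38 every obesogenic library was below every control library (6.11% of all transcripts), and in 1 every obesogenic library was above (7.43%). Kinds of transcript kept similar shares: protein-coding ones made up 84.4% to 86% of the genes' TPM in every library and retained-intron ones 8.44% to 10.6%. By GENCODE M21 the 39 genes have 227 transcripts, of which 18 were not analysed here. For 14 genes, Jam3, Sec11c, Myrf and Plekhb1 among them, these include the transcript numbered 201, so sums of these genes can miss an isoform.

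The transcript above in every obesogenic library was Bin1-201, a longer form of the gene. It measured 14.91, 9.079 and 13.49 TPM in the controls and 46, 15.04 and 64.38 TPM with the obesogenic diet. Obesogenic library 2 was only just above the highest control, and the log2 change was 1.47 (SE 0.52, adjusted p = 0.519). The shorter Bin1-205, the most abundant form, went the other way, with 250.3, 217.3 and 224.2 TPM against 191, 144.4 and 119.4 TPM. Its diets did not overlap either (log2 change -0.63, SE 0.22, adjusted p = 0.512). Bin1-201 made up 4.48%, 3.23% and 4.59% of listed Bin1 in the controls and 16.2%, 7.12% and 28.5% with the obesogenic diet, in the order of libraries 1, 2 and 3. Bin1-201 has 1764 coding bases in 19 exons and Bin1-205 has 1230 in 13. Neurons are known to make the longer brain form of Bin1, and the neuronal marker sum of the obesogenic libraries, 1174, 365.8 and 2463 TPM, had the same order; its part in the Bin1 values was not tested. Without Bin1-201, Bin1 measured 318.2, 271.6 and 280.1 TPM against 237.4, 196 and 161.5 TPM. Bin1-201 was picked for being higher in every obesogenic library, so taking it out lowers the obesogenic sums more. The separation of these sums is therefore not a further result.

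The 2 main forms of Plekhb1 were compared by their ratio. Plekhb1-204 has a coding exon of 105 bases (35 codons) that Plekhb1-203 skips. It is exon 5 of Plekhb1-204 in GENCODE M21, at chr7:100649928-100650032 on the minus strand of GRCm38, and its sequence is shown. Each form has 7 exons, so they also differ elsewhere and their ratio does not measure this exon alone.

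Plekhb1 exon: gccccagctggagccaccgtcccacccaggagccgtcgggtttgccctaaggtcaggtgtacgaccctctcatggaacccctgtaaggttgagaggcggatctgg

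The form with this exon, Plekhb1-204, was 16.1%, 16.7% and 18.6% of the 2 forms in the controls and 16.2%, 16.1% and 17.9% with the obesogenic diet, so the ranges overlapped. A minor form, Plekhb1-210, was at 53.3, 81.05 and 52.68 TPM in the controls and was listed at 0, 7.639 and 0 TPM with the obesogenic diet. Tspan2-204 measured 16.03, 6.733 and 13.24 TPM against 2.406, 2.018 and 1.617 TPM (adjusted p = 0.213). Both were below the controls in every obesogenic library without passing the threshold.

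In 4 genes, Jam3, Sec11c, Hapln2 and Cntn2, the protein-coding transcripts made up less than 50% of the listed TPM in every library. For Jam3, Sec11c and Cntn2 the longest or only form coding for protein in GENCODE M21 (Jam3-201, Sec11c-201 and Cntn2-201) was not analysed here. Their shares leave that form out and do not describe all RNA of these genes. Hapln2-201 was analysed. The retained-intron form Jam3-202 made up 66.1% to 93.3% of listed Jam3, at 13.83 ± 3.433 TPM in the controls and 14.21 ± 2.88 TPM with the obesogenic diet. Sec11c-208, a transcript with no coding sequence, made up 57% to 81.1% of listed Sec11c, again without Sec11c-201. Protein-coding transcripts made up 21.9% to 27.1% of listed Hapln2 and 2.57% to 33.3% of listed Cntn2. The sums of these 4 genes are therefore little guide to their protein-coding forms.

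**Figure D4:**
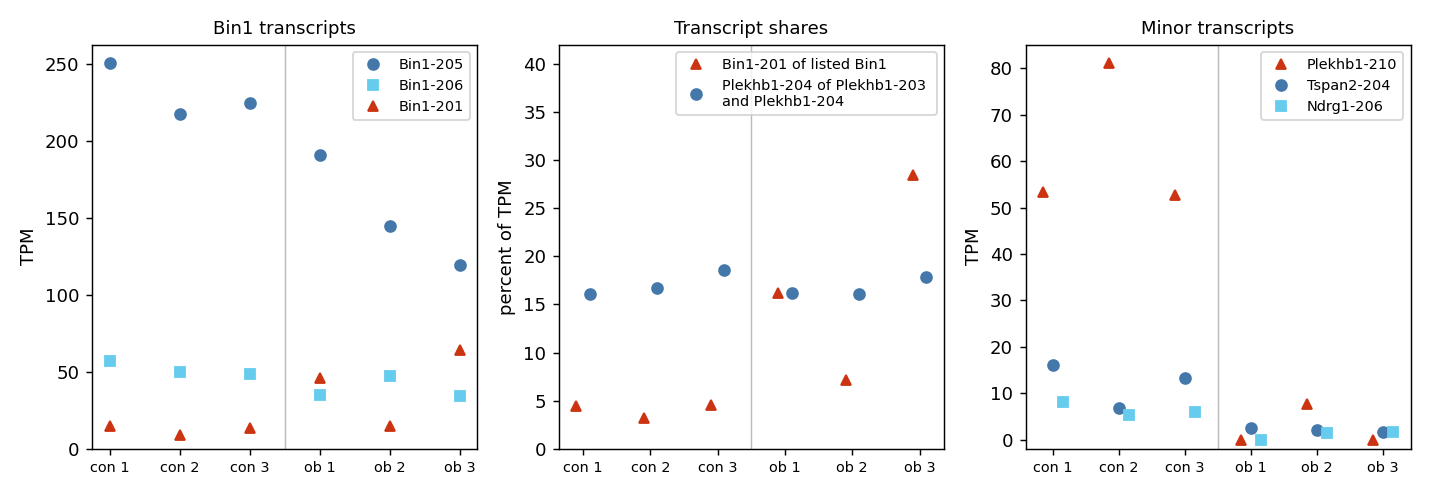
The left panel gives the TPM of 3 Bin1 transcripts, the middle panel the share of Bin1-201 in listed Bin1 and of Plekhb1-204 in the sum of Plekhb1-203 and Plekhb1-204 (percent), and the right panel the TPM of 3 minor transcripts, with 1 point per library (con, control; ob, obesogenic). Bin1-201 is higher and Bin1-205 lower in every obesogenic library, the Plekhb1-204 share stays between 16.1% and 18.6%, and Plekhb1-210 is listed at 0 in obesogenic libraries 1 and 3.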

How the data were processed

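Per the labels' protocols, a SMART-Seq mRNA kit made the libraries from poly(A) RNA, after extraction by NucleoSpin RNA Plus XS. The authors deposited 1 table of TPM per transcript and library. Tools named in the submitters' processing notes, with no role, are featureCounts 2.0.3, Subread, STAR 2.7.9a and DRAGEN. Which tool gave TPM, and on which build and annotation, is not given in the sources used here. TPM keeps no depth, so the depth is unknown and no counting interval is given. Listed values summed to 788456 to 832193 TPM per library.

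Repeated lines of a transcript (415 transcripts, always with equal values) were used once and transcripts were summed by gene. The 14364 genes that reached 1 TPM in 3 or more of the 6 libraries were tested as log2(TPM + 1), obesogenic minus control, with limma 3.58.1 in R 4.3.3 (lmFit, eBayes with trend). Log2 changes on this scale understate low genes. All adjusted p-values are two-sided, from limma, by Benjamini-Hochberg over all genes or transcripts tested. An exact permutation of 3 against 3 cannot go below 0.1. The fit was tested on simulated data. Figures used matplotlib 3.10.9.

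The genes and lists were chosen with earlier results of these data known. Values in every library are given for the 10 genes with the highest control mean, the 10 with the smallest unadjusted p, those with a higher obesogenic mean, Myrf and Nkx6-2; genes of other lists are the most abundant or of smallest p, and transcripts named were chosen after their values were seen. Alternatives covered pseudocount, filter, scaling, sample number as a block, variance trend, library weights, transcript choice and leaving out each library.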

Additional observations from a re-analysis of the deposited data

How the results depend on the processing

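The count of all genes passing was 0 with a pseudocount of 5 TPM, with no filter and with protein-coding genes only, 11 with the median gene set equal and 2064 with limma's array weights (library weights below), and ranged from 0 to 914 when 1 library was left out. Of the 39 genes, 0 passed under every alternative except library weights (2). Genes without overlap numbered 25 with the median gene set equal (14.6% of all genes were then below without overlap). With a library left out they numbered 12 to 33, the 33 being without obesogenic library 1 (15.7% of all genes). The median log2 change was -0.14 with library weights. Relative to myelin, 1 passed with a pseudocount of 5 TPM, 9 with library weights and 0 to 3 with a library left out. On that scale 48.1% of all genes were at an unadjusted p under 0.05 in the main limma fit. The all-gene counts passing under these alternatives, or with the replicate block below, are not given here. These counts are therefore not read as a result about the 39 genes. Transcripts passing ranged from 0 to 1 with a library left out.

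The sample titles number samples 1 to 3 in each diet. The names of the deposited columns carry a different numbering, which was not used here. Same-numbered libraries correlated in their deviations at 0.00787, 0.177 and 0.132, and differently numbered ones at -0.169 to 0.107. These values cannot settle whether the numbers pair samples. The labels do not say so, and the numbers were not taken as pairs. With the number as a replicate block, 0 of the 39 genes passed by diet and 1 passed relative to myelin, and no other call among the 39 genes changed.

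Signs that changed were all of genes that did not pass. With library weights the log2 change was 0.066 for Anln, 0.12 for Enpp2, 0.30 for Jam3, -0.00296 for Klk6, 0.20 for Nfasc, 0.28 for Pex5l, 0.12 for Serpinb1a, 0.10 for Tppp and 0.039 for Tspan2. With the most abundant transcript alone it was 0.049 for Jam3 and 0.20 for Sec11c, and without immunoglobulin genes 0.036 for Sec11c. With a library left out it ranged from -0.35 to 0.0375 for Gatm, -0.42 to 0.0256 for Jam3, -0.43 to 0.72 for Klk6, -0.49 to 0.0393 for Pex5l and -0.24 to 0.094 for Sec11c. The cause of these changes was not tested. A leave-one-out fit has 2 libraries in 1 diet.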
